A study of Homo sapiens with 2 samples.

Results

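Laminins, integrins and collagens are the gene families of the basement membrane, of the receptors that hold cells to it, and of the fibrous matrix around it. Their RNA was followed here in one RNA immunoprecipitation of CRTC2, a transcriptional coactivator of CREB, from the hepatocellular carcinoma cell line HCCLM3, of wild-type genotype as labelled. The members were taken from the deposited peak list as every row whose gene symbol has the form of a laminin chain (LAMA, LAMB or LAMC with a digit), an integrin chain (ITGA or ITGB) or a collagen chain (COL, a number, A, a number). This rule found 60 genes with 749 peaks, of 19480 genes and 175546 peaks in all. They were 11 laminin genes with 321 peaks, 22 integrin genes with 279 peaks and 27 collagen genes with 149 peaks. The integrin form also takes in ITGB1BP1, ITGB1BP2 and ITGB3BP, which encode proteins that bind integrin tails or share the name and are no integrin chains.

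The study compared 2 libraries of the same line, 1 made from RNA precipitated with CRTC2 and 1 from the input RNA of the same kind of extract. Both were total RNA libraries, and a peak is a stretch of the genome where the precipitated library carried more fragments than the input. There was 1 library on each side and no precipitation with a control antibody is analysed here, so no difference has a replicate check, RNA bound by CRTC2 and RNA carried over by the beads cannot be told apart, and no test was made. The fold, p and q of each peak are the authors' values and are used only to describe and rank peaks within the list. The intervals given below are 95% intervals that cover counting error only.

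A laminin is a trimer of 1 alpha, 1 beta and 1 gamma chain that polymerises into the sheet of a basement membrane. An integrin is a pair of 1 alpha and 1 beta chain that spans the plasma membrane. Many integrins tie laminin, collagen or fibronectin outside the cell to the cytoskeleton inside it. Collagen chains wind into triple helices that build fibrils, networks or membrane-anchored rods. In the liver, hepatocytes border a space with little basement membrane, and stellate cells make most of the fibrillar collagen, while carcinoma cells often carry laminins and laminin-binding integrins.

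Peaks of some members, such as ITGB3BP, LAMA4 and COL17A1, reached partly into the 250 bases before a RefSeq transcript start. For 2 members, LAMC1 and ITGB5, a peak lay wholly inside these bases, and only these 2 windows are shown. For LAMC1 that start is the start of the gene, and for ITGB5 it is an inner start, 13.7 kb inside the gene, so the ITGB5 window and peak lie within the RefSeq interval of ITGB5. Both are shown 5′ to 3′ on the strand of the gene, from the RefSeq promoter table of build GRCh38.p14, with the peak in capitals. The LAMC1 window is chr1:183023170-183023419 on the plus strand, and its peak lay at positions -227 to -167 from that start. The ITGB5 window is chr3:124887685-124887934 on the minus strand, and its peak lay at positions -100 to -70 from the inner start.
LAMC1: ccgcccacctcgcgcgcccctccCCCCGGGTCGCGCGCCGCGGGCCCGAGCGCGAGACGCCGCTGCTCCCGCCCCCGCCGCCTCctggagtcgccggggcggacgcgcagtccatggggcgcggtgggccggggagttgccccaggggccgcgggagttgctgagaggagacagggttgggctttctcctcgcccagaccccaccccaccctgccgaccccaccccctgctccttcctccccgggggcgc
ITGB5: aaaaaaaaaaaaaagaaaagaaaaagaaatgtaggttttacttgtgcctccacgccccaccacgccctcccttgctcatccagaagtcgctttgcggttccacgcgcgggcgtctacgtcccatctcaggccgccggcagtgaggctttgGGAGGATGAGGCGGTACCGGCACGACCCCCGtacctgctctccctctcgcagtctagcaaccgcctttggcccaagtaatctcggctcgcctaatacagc
The LAMC1 peak had a fold of 2.18 (0.905 to 5.99) on 2 fragments and the ITGB5 peak a fold of 1.67 on 1 fragment, so both rest on very few molecules. CRTC2 acts at promoters through CREB, whose full site reads TGACGTCA and whose shorter site reads TGACG or, on the other strand, CGTCA. Neither word occurred in these 2 windows on either strand. The promoter table matched 47 members with 67 windows. The full word occurred in 0 of the 67 windows and in 1.65% of all 35116 windows. A short word, which the full word contains, occurred in 17 of the 67 windows (25.4%) and in 21.2% of all windows, so the members' share lay near that of all promoters. These are matches of letters in the 250 bases upstream and say nothing about the binding of a factor.

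The fold of a peak is taken as the number of precipitated fragments at the summit plus 1, over the input level there plus 1. The input level is the scaled control value of the peak caller. It is often below 1 fragment and need not be a count at that place. The number of fragments is not in the list, but the fold and the p of each peak fix it: a whole number within 0.001 was found for 100% of peaks, and only 1 number was possible for 97.5%. The lowest input level, 0.0298, was shared by 10.3% of all peaks and by 64 member peaks. At that level the folds were 1.94 on 1 fragment, 2.91 on 2, 3.88 on 3 and 4.86 on 4, so they follow from the fragments alone. Of the 749 member peaks, 376 (50.2%) rested on 1 fragment, against 46.2% of all peaks, and without LAMA3 the share was 46.0%. The median fold of the member peaks was 1.86 on a median of 1 fragment, and that of all peaks was 1.89 on 2.

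Member peaks lay more in exons than those of all genes, and less at promoters and in 3′ UTRs. Exon peaks were 304 of 749 (40.6%), against 30.4% of all peaks. Promoter peaks, which the annotation takes as those within 3000 bases of a start, were 104 (13.9%) against 20.9%, and 3′ UTR peaks 49 (6.54%) against 13.8%. Intron peaks were 273 (36.4%) against 26.6%, a surplus not seen without LAMA3. Without that gene the members had 581 peaks, with 45.6% in exons, 26.0% in introns, 16.7% at promoters and 8.43% in 3′ UTRs. By family, 51.4% of laminin peaks were intron peaks, or 28.1% without LAMA3, compared with 24.7% of integrin and 26.2% of collagen peaks. Of the 51 member UTR peaks, 11 overlapped the transcript named in their row. The other 40 lay off it, as in ITGAE, where 11 of the 12 peaks were 3′ UTR peaks, the highest at 3.53, and none overlapped its transcript. An exonic peak below is therefore an exon peak or a UTR peak that overlaps the transcript, and there were 315 of them in 29 members.

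**Figure D1:**
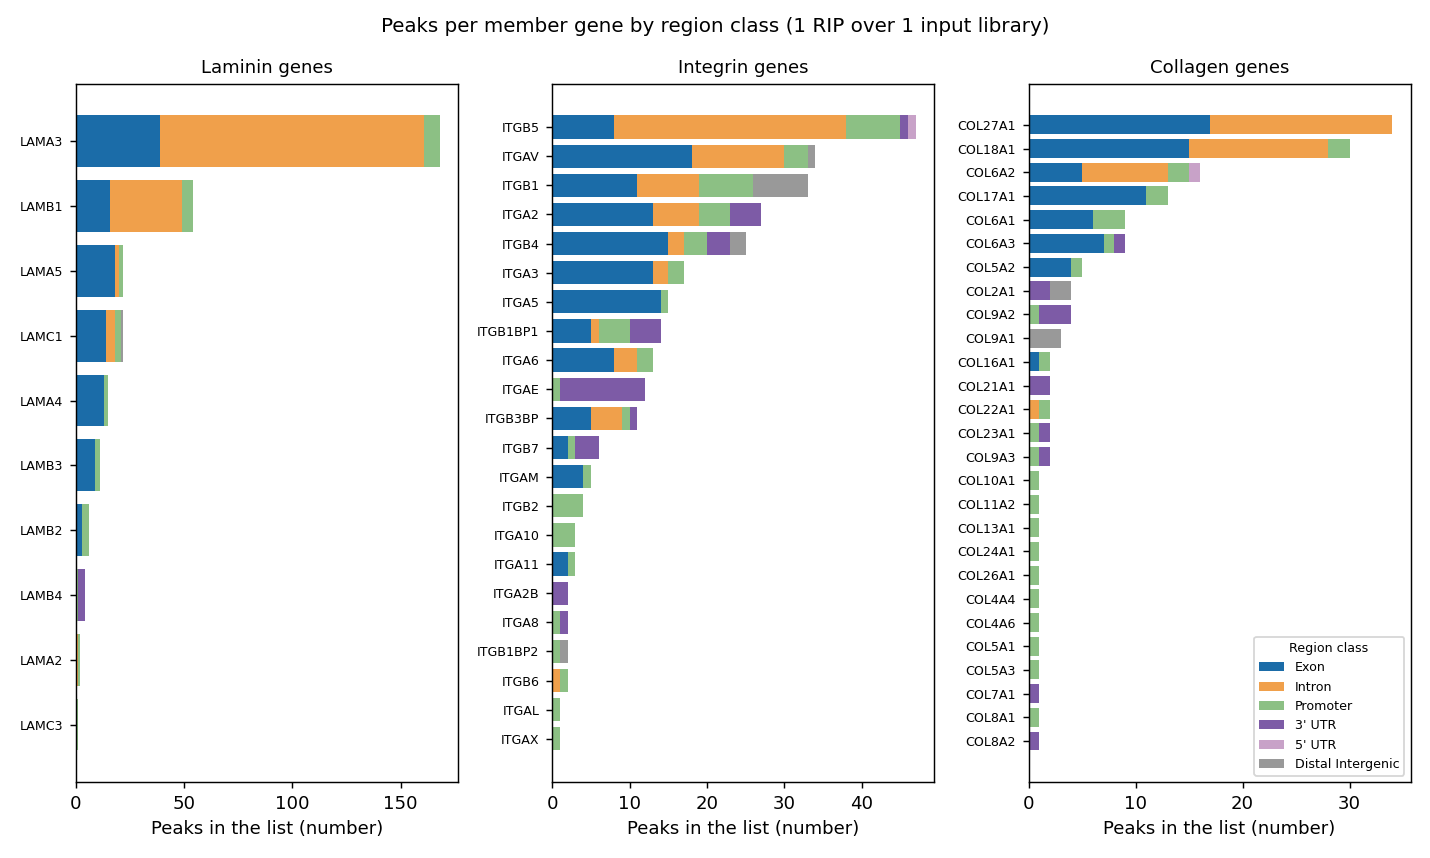
Number of peaks of each member shown (horizontal axis, peaks, with its own scale in each family), stacked by the class of the annotation. LAMA3 has 122 intron peaks among its 168, while LAMA5, LAMC1 and LAMA4 hold mostly exon peaks and 12 collagen genes hold 1 peak each.

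Exonic peaks covered most laminin genes and few collagen genes. Of the 86 protein-coding genes that RefSeq lists with such a symbol, 63 (73.3%) had a peak, beside 72.4% of all 20056 protein-coding genes. These are the 60 members and ITGA1, ITGA7 and ITGA9, which the list names by gene ID with no symbol and which are counted in this paragraph as the genes of the background are. An exonic peak was found for 8 of 12 laminin genes (66.7%), 15 of 30 integrin genes (50.0%) and 8 of 44 collagen genes (18.2%). Over the 3 families this was 31 of 86 (36.0%), beside 49.2% of all protein-coding genes. The level of each gene in the cells is not analysed here, and its part in these counts was not tested.

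Peaks at a q of at most 0.05, called past the q of 0.05 here, were rare, and all 9 were counted for laminin and collagen genes. They made up 9 of the 749 peaks (1.20%, exact binomial interval 0.551 to 2.27), beside 1.63% of all peaks, and 7 of the 315 exonic ones (2.22%, 0.898 to 4.52), beside 2.67% of all exonic peaks. Both shares lie near those of the whole list. By gene, 8 of the 86 (9.30%) had such a peak, beside 9.58% of all protein-coding genes. They were the laminin genes LAMA5, LAMB1, LAMC1, LAMA3 and LAMA4 and the collagen genes COL27A1, COL17A1 and COL4A6. Among the exonic peaks the share was 5 of 124 for laminins (4.03%, 1.32 to 9.16), 0 of 123 for integrins (interval 0 to 2.95%) and 2 of 68 for collagens (2.94%, 0.358 to 10.2). These intervals overlap, and they treat peaks as independent although peaks of 1 gene share their RNA.

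**Figure D2:**
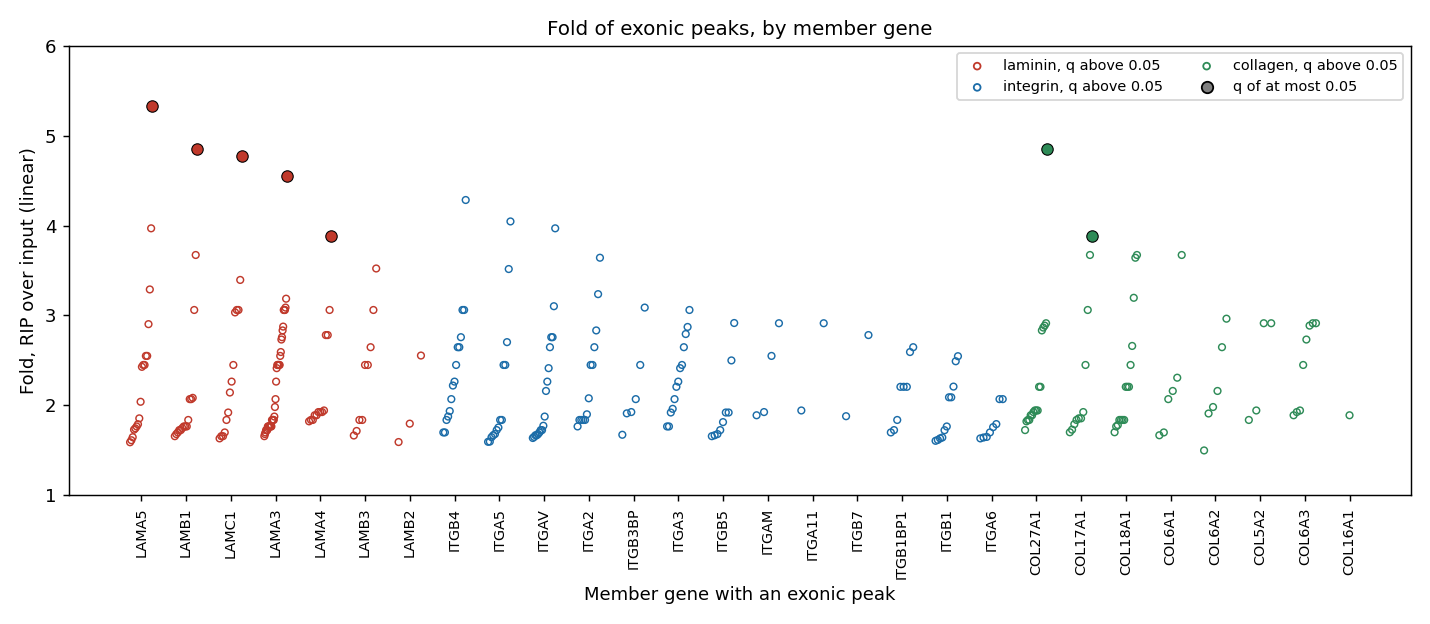
Fold of each exonic peak (vertical axis, precipitated over input) for the members shown (horizontal axis), by family, with filled points for peaks past a q of 0.05. The filled points lie between 3.88 and 5.33 in LAMA5, LAMB1, LAMC1, LAMA3, LAMA4, COL27A1 and COL17A1, and no integrin gene holds one.

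LAMA5, LAMB1 and LAMC1 encode the 3 chains of one trimer, a common laminin of adult epithelial basement membranes. Each had a peak past the q of 0.05 within an exon. LAMA4 forms another trimer with the same LAMB1 and LAMC1 chains, and its exon-labelled peak, 13761 bases wide, also passed. The LAMA5 peak, in exon 56 of 80 at chr20:62316652-62316884 (hg38), had 8 fragments against an input level of 0.687, a fold of 5.33 (2.64 to 9.93). That was the highest fold among all member peaks. The LAMB1 peak, in exon 22 of 34 at chr7:107953513-107953701, had 10 fragments against 1.27, a fold of 4.85 (2.56 to 8.55). The LAMC1 peak, in exon 6 of 28 at chr1:183115586-183115633, had 5 fragments against 0.255, a fold of 4.78 (2.09 to 10.1). The 3 intervals overlap almost wholly, so these folds have no order, and each fold is that of 1 pair of libraries. The LAMA5 and LAMC1 peaks are counted for the gene of their named exon, while the nearest start in the list is that of ADRM1 and LAMC1-AS1.

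Most exons of the 3 chains had no peak or a low one. LAMA5 had 22 peaks, 18 of them exonic and in 18 of its 80 exons, with a median exonic fold of 2.23, and its second highest was 3.97 in exon 58 on 8 fragments. LAMB1 had 54 peaks, of which 33 were intron peaks and 16 exonic in 16 of 34 exons, and its second highest exonic fold was 3.67 in exon 24. LAMC1 had 22 peaks, 14 of them exonic in 14 of 28 exons, with a second highest fold of 3.40 in exon 20 on 11 fragments. For scale, over 1638 protein-coding genes with an exon peak and at least 20 exons, the median share of exons with a peak was 44.0%, with quartiles of 26.9% and 58.1%. One more LAMC1 peak past the q of 0.05 was counted for its antisense gene LAMC1-AS1, at chr1:183143847-183145339, with a fold of 4.63 (2.21 to 8.93) on 7 fragments. Its summit lay within LAMC1, and since the list gives no strand for reads, the 2 genes cannot be told apart there.

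**Figure D3:**
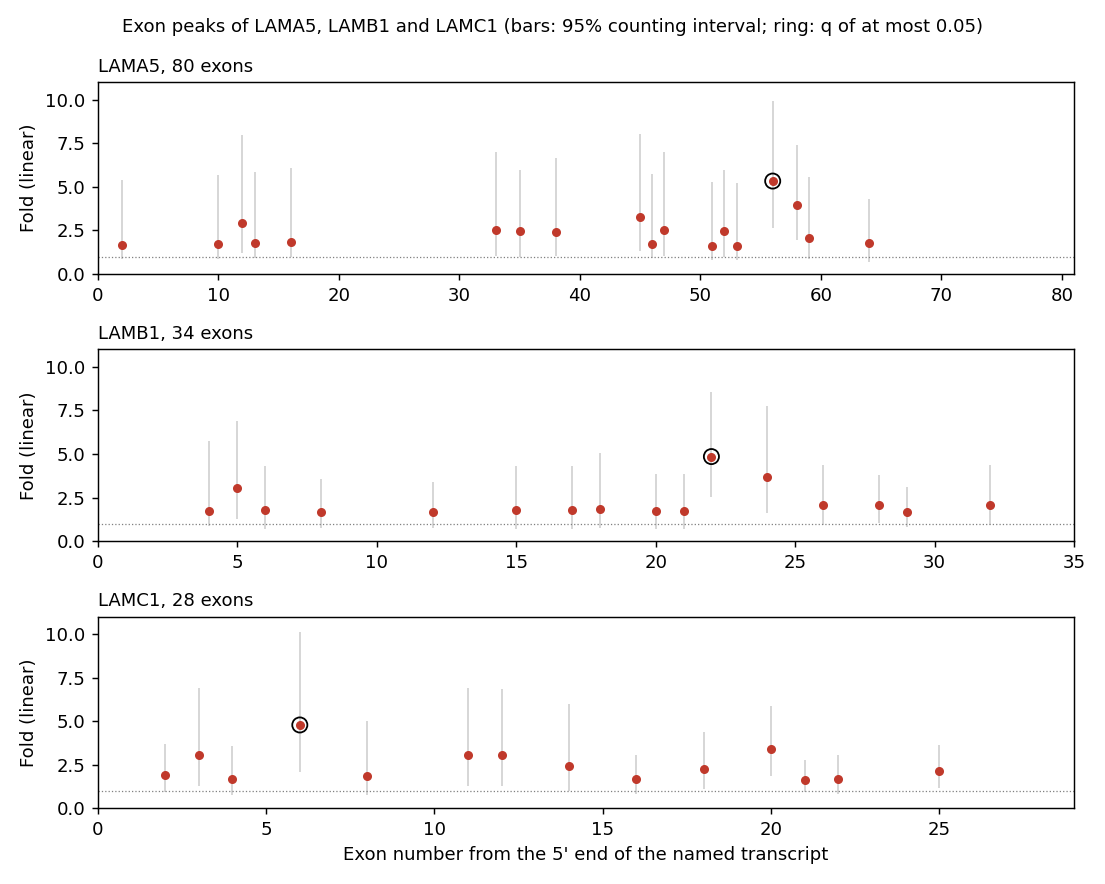
Fold of each exon peak (vertical axis, precipitated over input) by exon number (horizontal axis) for LAMA5, LAMB1 and LAMC1, with bars for the 95% counting interval and rings for peaks past a q of 0.05. The ringed peaks lie in exons 56, 22 and 6, at folds of 5.33, 4.85 and 4.78, and the intervals of most other peaks overlap theirs.

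LAMA3 encodes the alpha chain of the laminin that anchors epidermis and other epithelia, with LAMB3 as a partner. It held 168 peaks, more than any other member, and 122 of them were intron peaks. Its exons with a peak numbered 32 of 74, and the highest exonic fold was 4.55 (1.90 to 10.2) in exon 13 at chr18:23810428-23810530, on 4 fragments against 0.0982. An intron peak at chr18:23790132-23793443 also passed the q of 0.05, with a fold of 3.85 (1.56 to 9.40) on 3 fragments, and spans 3312 bases. Intron peaks came at 45.9 per 100 kb of the 265.6 kb gene. The median over 6221 protein-coding genes with both an exon and an intron peak was 7.78 per 100 kb, and 99.3% of them had fewer than LAMA3. Only 3 protein-coding genes had more intron peaks. LAMB1 had 41.6 intron peaks per 100 kb and ITGB5 21.5, while ITGAV had 13.2, COL18A1 11.98 and COL27A1 10.7. Intron peaks made up 75.8% of the exon and intron peaks of LAMA3, 67.3% of those of LAMB1 and 78.9% of those of ITGB5, against 46.7% over all genes.

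The intron peaks of LAMA3 lay on both sides of the start of a short transcript and mostly rested on 1 fragment. This transcript starts within the gene at position 23873020 of chromosome 18, and the 183.6 kb before that start belong to the long transcript alone. In the stretch before it lay 91 intron peaks, 79 of them on 1 fragment, and 20 exon peaks with a median fold of 2.45 at a median input level of 0.634. After it, over 82.0 kb, lay 31 intron peaks, 27 of them on 1 fragment, and 19 exon peaks with a median fold of 1.84 at a median input level of 1.90. The exon peaks before the inner start thus had the higher median fold and the lower median input. The input level moved with the fold here, and its part in this difference was not tested.

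**Figure D4:**
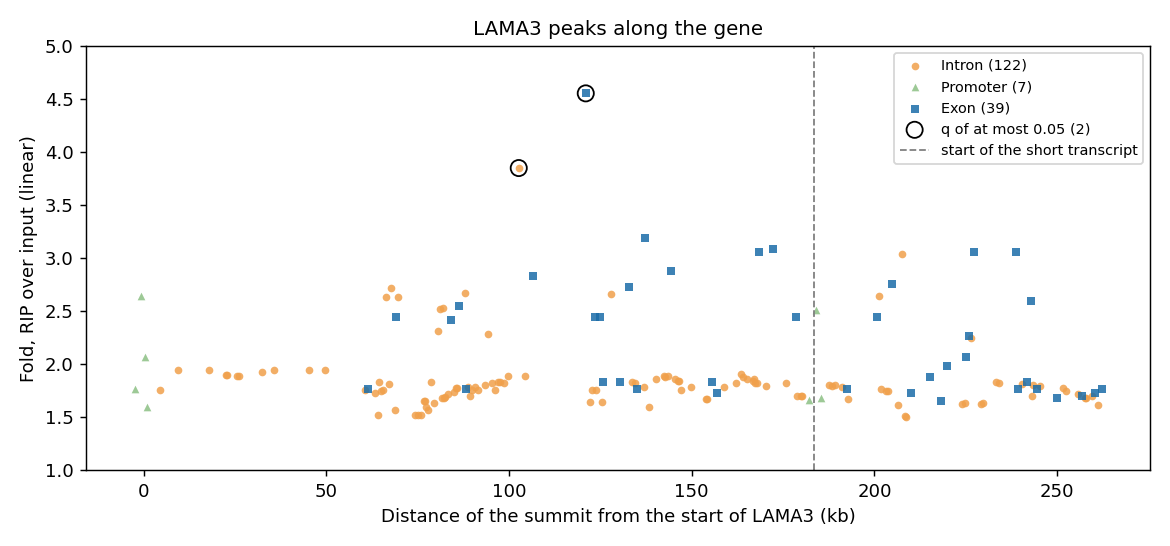
Fold of each exon, intron and promoter peak of LAMA3 (vertical axis, precipitated over input) by distance of its summit from the start of the gene (horizontal axis, kb), with a dashed line at the start of the short transcript and rings for peaks past a q of 0.05. Intron peaks lie along the gene, 91 before the line and 31 after it, and both peaks past a q of 0.05 lie before it.

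LAMB3 had 11 peaks, 9 of them exonic, with the highest fold of 3.52 in exon 8 and none past the q of 0.05. LAMA4, an alpha chain of vessel and muscle basement membranes, had 15 peaks and 13 exonic ones in 13 of 39 exons. Its peak past the q of 0.05, labelled exon 9 at chr6:112173283-112187043, had a fold of 3.88 (1.57 to 9.48) on 3 fragments where the input was lowest, and it is 13761 bases wide. The nearest start to this peak in the list is that of the antisense gene LAMA4-AS1, and the peak is counted here for the gene of its named exon. LAMB2 had 6 peaks and 3 exonic ones. LAMA2, LAMB4 and LAMC3 had 2, 4 and 1 peaks and no exonic one, with highest folds of 2.91, 1.94 and 1.94. LAMA1 was no member, as it lay whole inside 1 peak counted for another gene.

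The integrin genes gave the deepest exonic peaks and none past the threshold. Their 123 exonic peaks had a median of 5 fragments against an input level of 1.27, compared with 3 against 0.634 for laminins and 2 against 0.214 for collagens. The median folds were close, at 1.94, 1.93 and 1.96. ITGB1, the beta chain shared by most matrix receptors, had 33 peaks and an exonic peak in 11 of its 16 exons. Its exonic folds ran from 1.60 to 2.55 on a median of 13 fragments at an input level of 6.97. Its deepest peak, in exon 3, had 25 fragments against 15.2, a fold of 1.60 (1.06 to 2.34), and exon 2 had 22 fragments against 8.24, a fold of 2.49 (1.60 to 3.71). The interval of the exon 2 peak overlaps those of the laminin exon peaks past the threshold.

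**Figure D5:**
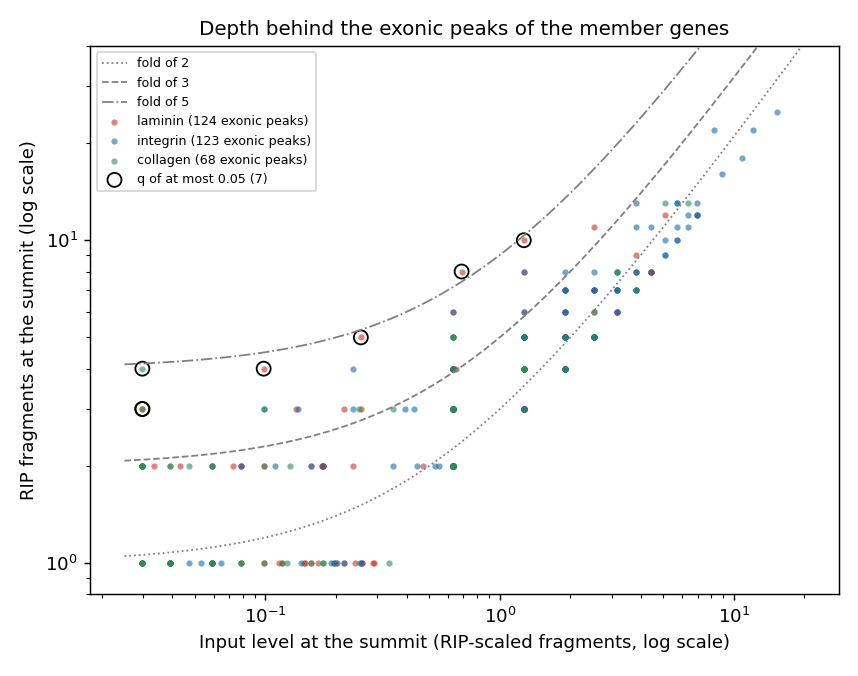
Precipitated fragments at the summit (vertical axis, log scale) against the input level (horizontal axis, log scale) for each exonic member peak, coloured by family, with lines of equal fold and rings for the 7 peaks past a q of 0.05, of which LAMA4 and COL17A1 share a point. Integrin peaks reach 25 fragments at high input, and the peaks past the threshold have 3 to 10 fragments at an input level of 1.27 or less.

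Among the laminin receptors, ITGB4, the hemidesmosome beta chain that pairs with ITGA6, had the highest integrin fold, 4.28 (1.96 to 8.61) on 6 fragments in exon 13 of 40. ITGA6 itself had exonic folds from 1.63 to 2.07 on a median of 9.5 fragments at an input level of 5.39. ITGA3, which pairs with ITGB1 on laminin, reached 3.06 (1.28 to 6.88) on 4 fragments. Of the 5 laminin receptor genes listed (ITGA3, ITGA6, ITGA7, ITGB1 and ITGB4), 5 had an exonic peak and 0 one past the q of 0.05. ITGA7 counts there through its gene ID alone, as its rows carry no symbol.

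ITGA5 and ITGAV, whose pairs bind fibronectin and vitronectin through the RGD motif, came next. ITGA5 reached 4.05 on 4 fragments in exon 12 of 30 and ITGAV 3.97 on 8 fragments in exon 5 of 30. ITGB5, the partner of ITGAV on vitronectin, had 47 peaks, the most of any integrin gene. Of these 30 were intron peaks, and its highest exonic fold was 2.92 (1.65 to 4.84) on 13 fragments in exon 9. The collagen receptor chain ITGA2 reached 3.64 (1.47 to 8.89) on 3 fragments in exon 7 of 30. ITGA10, also a collagen receptor chain, reached 3.23 on 4 fragments in a promoter-class peak with its summit outside the gene. ITGA11, another such chain, reached 2.91 on 2 in a peak labelled exon and 22229 bases wide. Of 8 RGD receptor genes 6 had a peak and 3 an exonic one, and of 4 collagen receptor genes 4 and 3. The leukocyte integrins ITGAL, ITGAX and ITGB2 were present through peaks of 1 fragment only. ITGAM reached 2.91 on 2 fragments in a peak labelled exon and 25842 bases wide. ITGB7 reached 3.06 on 4 in a peak of the 3′ UTR class off its transcript. Of 7 such genes 6 had a peak and 2 an exonic one, and none of these integrin lists had a peak past the q of 0.05.

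The remaining integrin members were ITGA2B, ITGA8 and ITGB6 with 2 peaks each, none of them exonic and none above a fold of 2.65. Of the genes that are no integrin chains, ITGB1BP1 had 14 peaks, ITGB3BP 11 and ITGB1BP2 2, with highest folds of 2.65, 3.09 and 2.91. A further 3 integrin genes had rows that name them by gene ID and carry no symbol, so they fell outside the rule. ITGA1 had 7 such peaks, ITGA7 10 and ITGA9 1. Their folds were at most 2.91 on at most 2 fragments, and 0 passed the q of 0.05.

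Collagens were the least covered of the 3 families. Of 27 members, 19 had no exonic peak, and 12 had 1 peak in all. The fibrillar collagens, which build the fibrils of scar and stroma, had a peak for 7 of 11 genes, an exonic one for 2 and one past the q of 0.05 for 1. That one was COL27A1, a fibril-forming chain of cartilage. Its peak, labelled exon 36 of 61, at chr9:114269768-114282640, had a fold of 4.86 (2.03 to 10.9). This peak held 4 fragments, again with the input lowest, and is 12873 bases wide, and the nearest start in the list is that of ORM1. COL27A1 also had the most peaks of any collagen gene, 34. COL5A2, the other fibrillar chain with an exonic peak, reached 2.91 on 2 fragments, in peaks 5455 and 12596 bases wide. The cartilage collagen COL2A1 had 4 peaks, all with the summit outside the gene. COL1A1 and COL1A2, the main collagen chains of scar, had no row of their own and each lay whole inside 1 peak counted for another gene.

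Among the membrane-anchored collagens, COL17A1, the hemidesmosome collagen that joins ITGB4 and the LAMA3 laminin, had an exonic peak past the q of 0.05. It is labelled exon 7 of 56, at chr10:104070977-104073727, with a fold of 3.88 on 3 fragments over the lowest input, and is 2751 bases wide. This class had 4 genes, 3 with a peak and 1 with an exonic peak. The network collagens, which include the type IV chains of basement membranes, had a peak for 5 of 9 genes and an exonic peak for 0. The COL4A6 peak past the q of 0.05 is a promoter-class peak of 537562 bases at chrX:108159025-108696586, with a fold of 3.88 on 3 fragments. Its summit, at position 108687509, lay outside COL4A6 and inside the neighbouring COL4A5.

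The beaded-filament collagens of type VI and the multiplexin COL18A1, whose C-terminal fragment is endostatin, had exonic peaks, none past the q of 0.05. COL18A1 had 30 peaks, with 15 of 42 exons covered and a highest fold of 3.67, and a peak from 1 to 37 bases after its start had a fold of 3.34 on 3 fragments. COL6A1 had peaks in 6 of its 35 exons, with the highest fold of 3.67 in exon 19, and its deepest, in exon 35, had 13 fragments against 5.07, a fold of 2.31 (1.31 to 3.83). COL6A2 reached 2.96 (1.20 to 7.24) on 3 fragments. COL6A3 reached 2.91 on a peak 18178 bases wide. All 3 beaded-filament genes with a peak, of 5, had an exonic one, and none passed the q of 0.05. The FACIT collagens, which decorate fibrils, had a peak for 6 of 10 genes and an exonic one for 1, COL16A1, whose only exonic peak had a fold of 1.89 on 1 fragment. Among the 19 collagen members without an exonic peak, the highest fold after COL4A6 was the 2.997 of COL2A1, and for 11 of them no peak had more than 1 fragment.

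Some member peaks were too wide to be placed within a gene, and others were narrow but lay outside the gene assigned to them. The summit lay inside the named gene for 660 of the 749 peaks (88.1%). For 17 of the 60 members no summit of theirs lay inside the gene. Of these 17, COL2A1, COL21A1, COL7A1, COL8A2, COL9A1 and ITGA2B had no peak over 10 kb wide. Peaks over 10 kb wide numbered 58 (7.74%), beside 9.19% of all peaks, and were 3.74% of laminin, 6.81% of integrin and 18.1% of collagen peaks. They had a median of 1 fragment, and 47 of them were at the lowest input level. Of the 15 members with 1 peak, 13 had one over 10 kb wide, and 12 of the 15 were collagens. Wide peaks also covered genes that no row names. Of the 26 protein-coding genes of the 3 families that were no members, 17 lay whole inside 1 peak, of 117 to 1921 kb. Besides LAMA1, COL1A1 and COL1A2 these included ITGA4, ITGB3 and ITGB8. Another 4 were overlapped in part by peaks counted for other genes, ITGA1, ITGA7 and ITGA9 were named by gene ID as given above, and COL3A1 and COL19A1 overlapped no peak. A peak of 1 fragment over such a stretch does not show whether the RNA of a gene within it was present.

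Some peaks inside member genes were counted for another gene. There were 89, in 29 members, of which 45 were promoter peaks, 40 3′ UTR peaks and 4 intron peaks. The gene named was protein-coding for 40, a miRNA for 24, a lncRNA for 20, a snoRNA for 3 and a pseudogene for 2. MIR4758 took 5 peaks of LAMA5, MIR6815 5 of COL18A1, MIR4260 4 of LAMB3, MIR936 4 of COL17A1 and MIR544B 3 of ITGB5. The highest fold among the 4 in LAMB3 was 3.67 on 5 fragments, above the 3.52 of the peaks counted for LAMB3 itself. Among the collagen members with no exonic peak, COL9A3 held 2 3′ UTR peaks counted for the pseudogene DPH3P1 and COL4A4 3 counted for RHBDD1. The exonic counts above leave these out. The list does not say which RNA gave the fragments. The LAMC1-AS1 peak given above was the only 1 of the 89 past the q of 0.05.

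Genes of the adhesion plaque link integrin tails to actin and signal from them. Like all lists here, this one was chosen with earlier results of these data known, so its counts only describe it. Of 18 such genes 17 had a peak, 16 an exonic one, 8 a peak past the q of 0.05 and 6 an exonic one past it. Over all 20056 protein-coding genes these counts were 14511, 9876, 1921 and 1317. The 6 were TNS3, a tensin, at 6.01 on 6 fragments, the actin crosslinker ACTN1 at 4.90 on 7, the kinase SRC at 4.59 on 8, the integrin activator talin, TLN1, at 4.48 on 12, its partner kindlin, FERMT2, at 3.78 on 3, and filamin, FLNA, at 2.87 on 24. The focal adhesion kinase PTK2 and ACTN4 passed it with intron peaks of 3.83 and 3.85 on 3 fragments each.

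The other matrix and cell-surface genes had a peak past the threshold less often than the adhesion plaque genes, of which 8 of 18 had one. Over all protein-coding genes 9.58% had one. Of 16 other matrix and receptor genes 14 had a peak, 11 an exonic one and 3 one past the q of 0.05. These were the syndecans SDC4, at 6.12 on 9 fragments, and SDC1, at 4.41 on 9 in a peak of the 3′ UTR class off its transcript, and the basement membrane proteoglycan AGRN, at 4.41 on 9. Of 17 collagen making and matrix turnover genes 15 had a peak, 13 an exonic one and 2 one past the q of 0.05. They were MIA3, which loads collagen into transport carriers, at 4.92 on 5 fragments, and the crosslinking oxidase LOX, at 3.84 on 3 in a peak of the distal intergenic class. The cell type label was set beside marker genes, as far as peaks can show it. Of 10 hepatocyte genes 9 had a peak, 5 an exonic one and 1 one past the q of 0.05, APOB at 3.88 on 3 fragments. Of 8 stellate, fibroblast and endothelial genes 4 had a peak, 3 an exonic one and 1 one past the q of 0.05. That was the endothelial PECAM1, with its highest such peak, of the promoter class, at 4.55 on 4 fragments. Of 7 blood cell genes the counts were 5, 1 and 0. Over all protein-coding genes 72.4% had a peak and 49.2% an exonic one, so these counts do not set the hepatocyte genes apart.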

How the data were processed

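The members and all gene lists were chosen with earlier results of these data known. Per the submitters' processing notes, reads were aligned with HISAT2 to hg38 and peaks called with MACS2. The sources used here give no versions, settings or mapped read totals. Per the file headers, each peak of the deposited list has a fold, a −log10 p, a −log10 q and a score. The fold was taken as a linear ratio with a pseudocount of 1 on both sides, an assumption of the solution for fragments. The score is the −log10 p times 10, rounded down, for 100% of peaks as deposited by the authors. The control behind the fold was taken to be the input library.

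For exon and intron rows the gene is that of the transcript named in the annotation, and for others the gene assigned by nearest start. Symbols came from the list itself. Fragments at the summit were solved from fold and p, as Poisson counts, in Python 3.11.15 with scipy 1.17.1, after the solution was tested on simulated data. Fold intervals are exact Poisson intervals of the fragments with the input level held fixed. The genes named are, by a fixed rule, the members with the highest folds and most peaks in each family, every peak at a q of at most 0.05, and list genes with such a peak. Other members were named for completeness after their values were seen. RefSeq tables of build GRCh38.p14 gave gene intervals and promoters. Words in exonic peaks were not searched, since sequence there is not used here. No columns of other samples were used. The values of 1 member are counted in the totals and not reported here by name, nor shown by name in the plots.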

Additional observations from a re-analysis of the deposited data

How the results depend on the processing

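The reported values were 749 peaks, 60 members, 29 members with an exonic peak, an exon share of 40.6%, a median fold of 1.86 and 8 members with a peak past the q of 0.05. With only peaks past that q they were 9 peaks, 8 members, 7 with an exonic peak, 77.8% and 4.55. With at least 5 fragments they were 138 peaks, 31 members, 19 with an exonic peak, 74.6% and 2.07, and 3 members past the q of 0.05 (LAMA5, LAMB1 and LAMC1). The first setting chooses peaks by q and the second by fragments, so both change the make-up of the set by design. Peaks past the q of 0.05 need not be deep, as COL17A1 and LAMA4 passed on 3 fragments each. With the assigned gene in every case the exon share was 35.0%, LAMA5 fell to a highest fold of 1.94, and 6 members passed the q of 0.05, of which 4 were the same (LAMA3, LAMB1, COL17A1 and COL4A6). LAMA4, LAMA5, LAMC1 and COL27A1 thus rest on the gene of the named exon. With peaks of at most 1 kb the median fold was 1.84 and 4 members passed it (LAMA3, LAMA5, LAMB1 and LAMC1). At a q of at most 0.01 LAMC1 no longer passed. With summits inside the gene, an alternative chosen after seeing the data, the exon share was 46.1% and COL4A6 no longer passed. With symbols linked by the RefSeq table, also chosen after seeing the data, there were 767 peaks, 63 genes and 31 with an exonic peak. Depth limits most values, since 50.2% of member peaks rest on 1 fragment. No paired analysis was possible because there is 1 library on each side.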
